A study of Mus musculus with 35 samples.

Results

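The genes described here encode the proteins of the cytosolic ribosome. They were the rows whose mouse symbol is that of a protein of the small subunit (Rps), of the large subunit (Rpl), of the acidic stalk (Rplp0 to Rplp2) or Rpsa, with a mean level of at least 1 FPKM (fragments corrected for gene length and library size) over all libraries. Of 83 rows with such a symbol, 78 passed, 33 for the small and 45 for the large subunit, among 11354 genes at or above that level and 47069 gene identifiers in all. Every one of the 78 entered the tests. The 5 rows below the minimum were Rpl24 at a mean of 0.716 FPKM, Rpl3l at 0.454, Rpl39l at 0.349, Rpl6l at 0.0534 and Rpl10l at 0. Rpl24, annotated as protein coding, held 1 to 21 fragments a library, and whether the counting or annotation of its reads lowered this value was not tested. The first row above the minimum was Rps4l at 1.45, and the next were Rpl23a at 41.2 and Rpl35 at 120.5.

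The libraries were RNA-seq of bone-marrow-derived macrophages, cells grown out of the bone marrow of C57BL/6 mice in medium conditioned by L929 cells, a fibroblast line that secretes the growth factor macrophages need. The mice were wild type (WT, 17 libraries) or carried the label AMPKα1-/-, a loss of the α1 catalytic subunit of the energy sensor AMP-activated protein kinase in the whole animal (18 libraries). Each culture received, for 24 h, the solvent DMSO (vehicle), dexamethasone (Dex, a synthetic glucocorticoid, 100 nM), lipopolysaccharide (LPS, the bacterial cell wall component sensed by TLR4, 100 ng/ml), LPS with Dex, damage-associated molecular patterns (DAMPs, 1 µg/ml) or DAMPs with Dex, at those doses. What the DAMPs were made of is not given in the labels or the methods. Each of the 12 groups held 3 libraries, described in the study's methods as cultures from individual mice, except WT with LPS, which held replicates 2 and 3, and replicate 1 was not analysed here. The libraries held 15837203 to 31955298 fragments on genes, with a median of 19973568, and 75 of the 78 genes had at least 1000 fragments in every library, so counting error was small beside the spread between cultures.

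A eukaryotic ribosome joins a small subunit, which decodes the message, to a large subunit, which forms the peptide bond, and cells are known to keep the messages for their many proteins in step. Many of these messages begin with a run of pyrimidines, the terminal oligopyrimidine (TOP) motif, through which the kinase mTOR controls their translation. In macrophages, LPS is known for setting off a wave of inflammatory messages and for altering growth and protein synthesis, glucocorticoids for dampening that wave, and AMPK for restraining mTOR when energy is short.

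The starts of 6 of the genes are shown because the 78 genes moved together and because these 6 stand at both ends of the response to LPS described further on, among the genes with a promoter entry. Each is 40 bases of the plus strand of GRCm38.p6, from RefSeq, with the annotated transcription start as the first base after the first 20, and the capitals mark the longest run of pyrimidines near that start. The first 3 were among the most lowered by LPS in WT and the last 3 were the least lowered:
Rpl10a, chr17:28328451-28328490: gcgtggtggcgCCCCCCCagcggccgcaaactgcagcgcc
Rps9, chr7:3704021-3704060: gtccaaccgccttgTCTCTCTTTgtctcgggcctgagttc
Rpl28, chr7:4792945-4792984: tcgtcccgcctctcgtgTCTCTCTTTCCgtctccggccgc
Rpl38, chr11:114668560-114668599: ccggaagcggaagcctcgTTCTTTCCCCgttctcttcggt
Rps27l, chr9:66946066-66946105: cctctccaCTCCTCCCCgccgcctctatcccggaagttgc
Rpl27, chr11:101442225-101442264: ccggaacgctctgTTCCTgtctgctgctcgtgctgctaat
Entries were present for 57 of the 78 genes. A tract of the TOP kind (the word CTTTT, the word CTTTC, the word CTTCC, the word TCTTT or the word CCTTT, which overlap each other, within 10 bases of the start on the gene's own strand) was found in 20 of the 57, or 35.1%, against 13.9% of the tested genes with an entry and 12.2% of all 27025 entries. In the window from 250 bases before to 50 after the start, on either strand, the ETS word CCGGAAG was found in 43.9% of the 57, against 22.1% of the tested genes, and the YY1 word AAGATGG in 15.8%, against 9.08%. The words GGGCGG (63.2% against 69.1%), CACGTG (10.5% against 12.3%) and TATAAA (10.5% against 8.33%) were about as frequent as in the tested genes. The tract was no more frequent among the genes with the lowest values under LPS: it was present in 3 of the 15 genes most lowered and in 7 of the 15 least lowered, and the median log2 difference between LPS and vehicle in WT was -0.51 for the 20 genes with it and -0.66 for the 37 without. These are matches of letters in an annotated window, chosen with the responses known, and are given as a description.

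Prkaa1, the gene for AMPKα1, was measured in every library to check the genotype labels. In vehicle it stood at 15.9, 11.8 and 15.3 FPKM in WT and at 14.8, 16.5 and 15.4 FPKM in the libraries labelled AMPKα1-/-. Over all libraries it ran from 8.59 to 26.1 FPKM in WT and from 9.05 to 24.0 FPKM in the others. The ranges overlapped and the difference in vehicle was 0.12 ± 0.23 on the log2 scale (SE, limma, adjusted p = 1). The values are per gene and not per exon, so they would not show a deletion of part of the message. The genotype is therefore not checked by this gene, and the libraries are called labelled AMPKα1-/- throughout.

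The 78 genes were among the most abundant messages of these macrophages. Their mean levels had a median of 748 FPKM, against 14.8 over all tested genes, and 26 of them were among the 100 genes with the highest means and 73 among the first 500. Among the highest were Rplp1, a protein of the stalk that recruits elongation factors, at 2372 FPKM, Rps14 at 1954, Rpl10 at 1784 and Rpl31 at 1734. The lowest after those named above were Rps15a at 164 FPKM and Rps13 at 175. Rps4l, with as few as 6 fragments in a library, is annotated as a transcribed processed pseudogene, and the other 77 as protein coding. The genes lie on 19 chromosomes, with 14 on chromosome 7. Some processed copies outside the rule also carried sizeable values, Rps2-ps10 with a mean of 340 FPKM, Rpl34-ps1 with 325, Rpl3-ps1 with 286 and Rps13-ps1 with 130, so levels of their parents are uncertain by the reads that the counting assigned to such copies. Of 273 such pseudogene rows 31 were tested, and with LPS in WT 12 of them fell and none rose, or 38.7%, close to the 35.8% of all tested genes that fell. Within groups the 78 genes had a median SD of 0.223 on the log2 scale, against 0.213 over all tested genes, whose levels were much lower. Their combined share also varied within groups, from 4.05 to 5.72% of fragments among the WT vehicle libraries.

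Rps2 and Rps18, both encoded on chromosome 17 and both part of the small subunit, stood apart from the others, with SDs within groups of 1.13 and 0.895. Rps2 was at 154, 65.4, 82.1, 115, 119 and 167 FPKM in the 6 WT libraries numbered 2, while WT libraries numbered 1 held 805 to 1223 FPKM except the vehicle library at 548, and those numbered 3 held 482 to 561. Among the libraries labelled AMPKα1-/-, numbers 1 and 2 held 440 to 730 FPKM and number 3 held 858 to 1074 except in DAMPs, at 556. Rps2-ps10, a processed copy of Rps2 on chromosome 18, ran from 28.0 to 876 FPKM and was high where Rps2 was low, and the sum of both ran only from 552 to 1265 FPKM with an SD within groups of 0.200. Rps18 also differed by number within each genotype, from 192 FPKM in WT Dex replicate 2 to 1179 in WT DAMPs + Dex replicate 1. WT numbers 1 and 3 met in LPS with Dex, at 604 and 607 FPKM. Between genotypes the 2 genes divided the libraries differently. Numbers 1 and 2 labelled AMPKα1-/- held 208 to 340 FPKM of Rps18, except DAMPs + Dex 1. That was near WT number 2 (192 to 309) and below WT number 3 (497 to 607), whereas for Rps2 they lay near WT number 3. Thus 4 libraries were out of line with the others of their number: WT vehicle 1, and Dex 3 (with Rps2-ps10 at 202 FPKM), DAMPs 3 and DAMPs + Dex 1 (with Rps18 at 640 FPKM) of those labelled AMPKα1-/-. Neither Rps2 nor Rps18 was called in any comparison, and the cause of the split was not tested. Leaving out each of the 4 libraries in turn left 29 genes called against 38 for LPS with Dex against vehicle in WT, 53 against 54 for LPS in WT and 19 against 17 for Dex in the libraries labelled AMPKα1-/-.

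**Figure D1:**
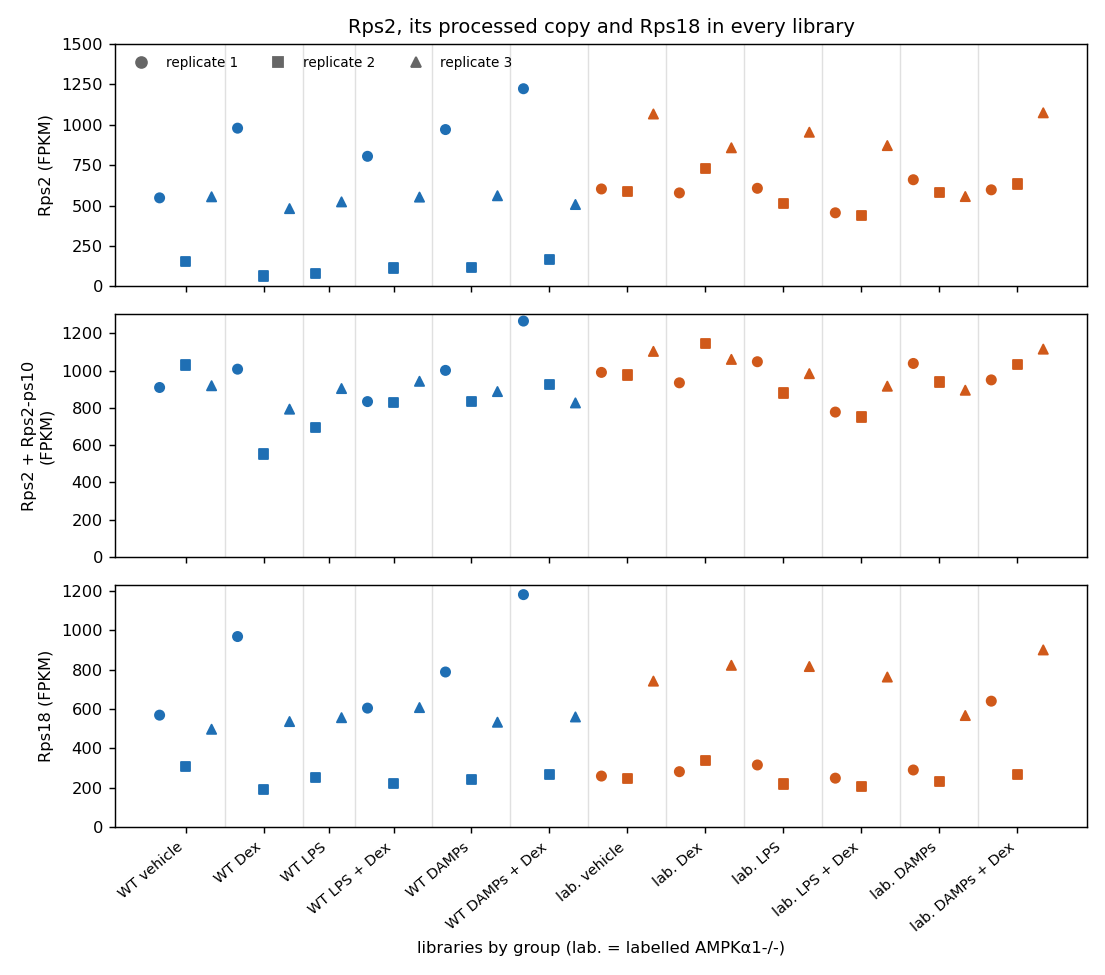
FPKM of Rps2 (top), of Rps2 and its processed copy Rps2-ps10 together (middle) and of Rps18 (bottom) in each of the 35 libraries, by group, with the marker giving the replicate number. Rps2 runs from 65.4 to 1223 and is lowest in WT libraries numbered 2, whereas the sum with its copy stays between 552 and 1265.

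The share of each library taken by the 78 genes gives their combined level, and in bulk RNA fewer cells of a kind and less RNA per cell cannot be told apart. In vehicle it was 4.66, 5.72 and 4.05% of fragments in WT and 4.95, 4.65 and 3.80% in the libraries labelled AMPKα1-/-. With LPS it was 2.78 and 3.21% in WT and 3.84, 3.13 and 2.80% in the others. Both WT LPS libraries lay below all WT vehicle libraries, while in the libraries labelled AMPKα1-/- the highest LPS value reached just above the lowest vehicle value. With LPS and Dex the shares were 2.94, 3.61 and 4.10% in WT, where the highest passed the lowest vehicle library, and 3.80, 3.36 and 3.38% in the others. There too the highest (3.802%) just passed the lowest vehicle library (3.798%). Dex alone gave 4.77, 3.62 and 4.26% in WT, overlapping vehicle, and 5.45, 6.93 and 5.17% in the libraries labelled AMPKα1-/-, all above vehicle. DAMPs gave 4.46, 4.76 and 4.45% in WT and 6.02, 4.47 and 4.83% in the others, overlapping vehicle in both. DAMPs with Dex gave 5.92, 6.45 and 4.58% in WT and 5.15, 5.19 and 4.58% in the others, so that the highest values passed all vehicle libraries while the lowest did not. The share of mitochondrially encoded messages, which is read as a sign of RNA quality, moved as well. It was 1.26 to 1.47% of the FPKM sum in WT vehicle, 0.864 and 0.897% with LPS and 1.23 to 1.66% with LPS and Dex. In the libraries labelled AMPKα1-/- it was 1.47 to 1.56% in vehicle, 0.798 to 1.21% with LPS and 1.62 to 1.93% with LPS and Dex. All LPS libraries thus lay below vehicle in both genotypes. With DAMPs and Dex all libraries lay above vehicle, at 1.57 to 2.05% in WT and 1.99 to 2.70% in the others. The part of these shifts in the results was not tested.

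**Figure D2:**
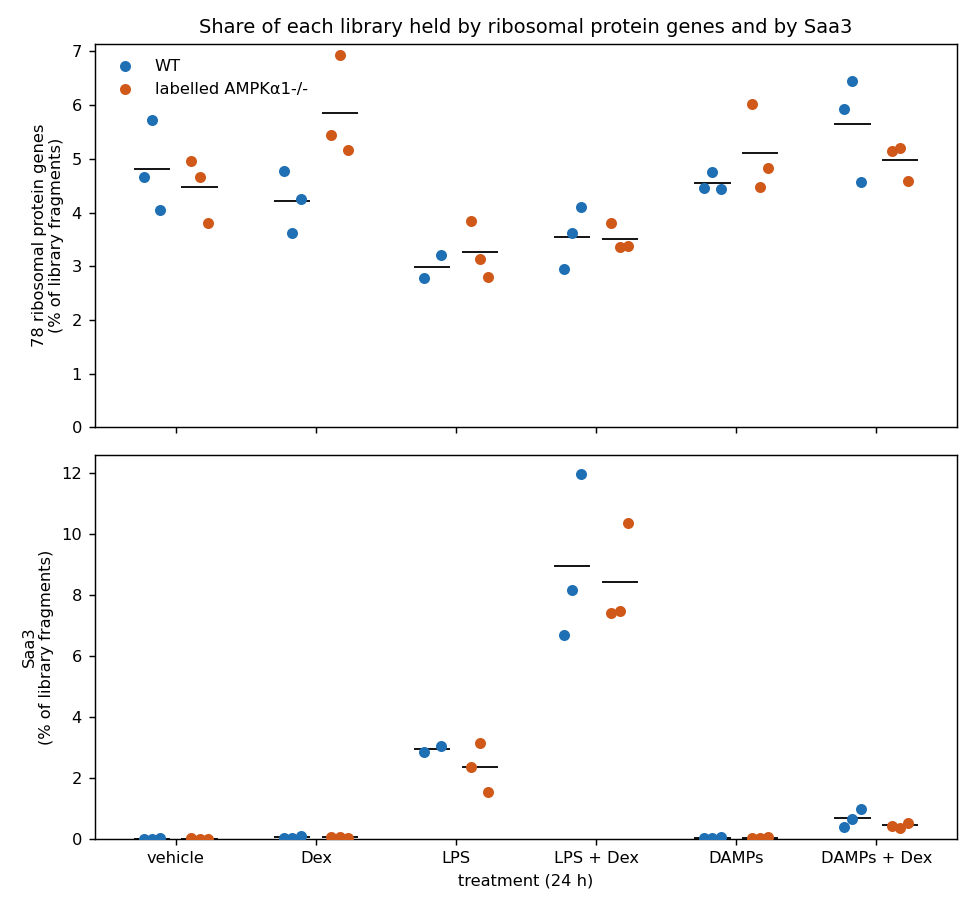
Percent of each library's fragments held by the 78 ribosomal protein genes (top) and by Saa3 (bottom), by treatment, with WT in blue and the libraries labelled AMPKα1-/- in orange, 1 point a library and a bar at the group mean. The ribosomal share is lowest with LPS, between 2.78 and 3.84%, while Saa3 is highest with LPS and Dex, between 6.69 and 11.96%.

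LPS against vehicle asks how the macrophages' ribosomal protein messages stood after a day of bacterial stimulation. In WT, 54 of the 78 genes fell and none rose (limma on log2(FPKM + 1), Benjamini-Hochberg over all 11354 genes, adjusted p under 0.05). That was 69.2% of them, where 35.8% of all tested genes fell and 19.9% rose. Their median log2 difference was -0.62, a 0.651-fold level, with the middle of the genes between -0.88 and -0.46, while the median of all tested genes was -0.19, which leaves -0.43 relative to it. In 63 of the 78 both LPS libraries lay below all vehicle libraries, against 45.6% of all genes. In the libraries labelled AMPKα1-/-, 38 genes fell and none rose, or 48.7%, where 44.1% of all tested genes fell and 20.2% rose. Their median was -0.38 beside -0.30 for all genes, which leaves -0.09, and 25 genes had LPS libraries wholly below vehicle, fewer than the 49.3% seen over all genes. Read against that background on the deposited scale, the share of these genes that fell was well above that of all genes in WT and close to it in the libraries labelled AMPKα1-/-. The difference between genotypes was itself tested and none of the 78 passed (limma, interaction, 0 called, 1 at an unadjusted p under 0.05 and 0 by limma's voom on fragments, and 0% of all tested genes called), with a median difference of 0.21, which was 0.068 without WT vehicle replicate 2 and 0.33 without LPS replicate 3 of those labelled AMPKα1-/-.

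The genes at the lower end were much the same in both. Rpl10a, a large subunit protein, was at 603, 655 and 559 FPKM in WT vehicle and 246 and 271 with LPS, and at 568, 555 and 496 against 338, 296 and 234 in the libraries labelled AMPKα1-/-. Every LPS library lay below every vehicle library, and the log2 differences were -1.22 ± 0.17 (SE, limma adjusted p = 7.82e-07) in WT and -0.91 ± 0.15 (adjusted p = 1.01e-05) in the others. Rps9, needed for the fidelity of decoding, was at 1281, 1642 and 1045 FPKM in WT vehicle against 543 and 610 with LPS, and at 1319, 1249 and 936 against 742, 635 and 532 in the others, with log2 differences of -1.17 and -0.87. Rps4x (-0.84) and Rpsa (-0.84) were also among the 5 lowest in the libraries labelled AMPKα1-/-.

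The genes at the upper end did not pass the test. Rpl38, which is known for favouring the translation of Hox messages in embryos, was at 441, 600 and 457 FPKM in WT vehicle and at 481 and 587 with LPS, and its values overlapped in the libraries labelled AMPKα1-/- as well, at 499, 437 and 376 against 638, 469 and 394. Its log2 differences were 0.10 ± 0.31 (limma adjusted p = 0.797) and 0.17 ± 0.28 (adjusted p = 0.596). Rpl27 was at 1146, 1071 and 1011 FPKM in WT vehicle and at 968 and 1119 with LPS, a difference of -0.05 ± 0.15 (adjusted p = 0.823). Rps6, the substrate of S6 kinase downstream of mTOR, was at 761, 925 and 665 FPKM in WT vehicle and at 659 and 778 with LPS, a difference of -0.12 ± 0.19 (adjusted p = 0.623). In all 3 the LPS and vehicle libraries overlapped. Rps27l, induced by p53 and a near copy of Rps27, was at 260, 286 and 264 FPKM in WT vehicle and at 240 and 290 with LPS (-0.03 ± 0.18, adjusted p = 0.887). Rps27 itself was at 1385, 1436 and 1103 against 659 and 762, wholly lower with LPS (-0.87 ± 0.21, adjusted p = 0.000697). Rps4l, the other near copy, differed by -0.32 ± 0.40 (adjusted p = 0.518) at 0.752 to 2.47 FPKM in vehicle, while its parent Rps4x fell by 1.03.

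Among proteins with known roles, Rpl5 and Rpl11, which with the 5S rRNA can hold back the p53 inhibitor Mdm2, fell by 0.89 and 0.56 in WT with LPS. Rps19, the gene most often mutated in Diamond-Blackfan anaemia, fell by 0.88, Rpsa, also known as the laminin receptor, by 1.05, Rps3, which also acts in DNA repair, by 0.53, and Rpl13a, a part of the GAIT complex that silences inflammatory messages in myeloid cells, by 0.75. Of the stalk, Rplp2 fell by 0.64, whereas Rplp0 (-0.47, limma adjusted p = 0.0638) and Rplp1 (-0.61, adjusted p = 0.0634) did not pass. By subunit, 24 of 33 small subunit genes and 30 of 45 large subunit genes fell in WT, with medians of -0.66 and -0.60, and 17 and 21 in the libraries labelled AMPKα1-/-.

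The genotypes share no library, so their differences can be set side by side. Over the 78 genes, Pearson's r between the WT and the other differences was 0.90 and Spearman's rho 0.88, across genes that are not independent replicates and that share libraries within each genotype. All 38 genes that fell in the libraries labelled AMPKα1-/- also fell in WT, which is 100% of the first list and 70.4% of the second, and 8 of the 10 lowest genes were shared. The number of calls rested in part on single libraries: without WT LPS replicate 2, 29 genes fell in WT, and in the libraries labelled AMPKα1-/- 24 fell without vehicle replicate 1 and 21 without LPS replicate 3.

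**Figure D3:**
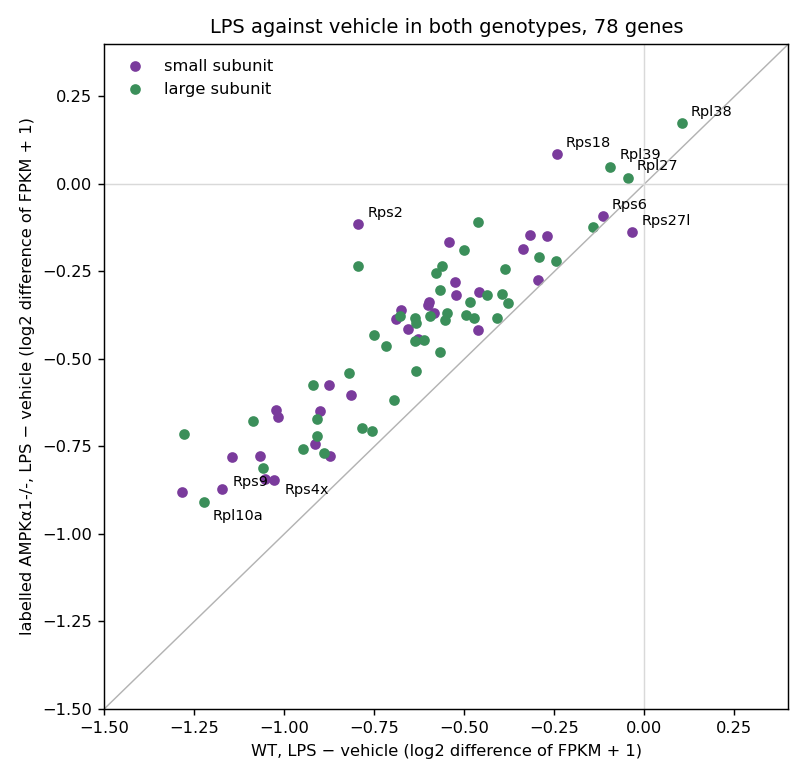
Difference between LPS and vehicle (log2 of FPKM + 1) for each of the 78 genes in WT (x axis) and in the libraries labelled AMPKα1-/- (y axis), with small subunit genes in purple, large subunit genes in green and the grey line marking equal differences. Rpl10a and Rps9 lie at the lower left and Rpl38 at the upper right, and most points lie above the line of equal differences.

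LPS with Dex against vehicle shares its vehicle libraries with the comparison above. In WT, 38 genes fell and none rose, against 37% of all tested genes that fell and 17.2% that rose, with a median of -0.41 beside -0.23 for all genes. Of the 78 genes 26 fell and none rose in the libraries labelled AMPKα1-/-, or 33.3%, against 40.8% of all genes that fell and 16.7% that rose, with a median of -0.31 beside -0.28. Rps14, a small subunit protein whose loss is linked to the anaemia of the 5q- syndrome, was among the 5 lowest in both, at 1092, 1243 and 1402 FPKM in WT (-0.84, limma adjusted p = 0.000109) and at 1403, 1212 and 1102 in the others (-0.70, adjusted p = 0.000797), wholly below vehicle in each. Without single libraries the counts in WT were 19 (vehicle replicate 2) and 20 (LPS + Dex replicate 1), and in the libraries labelled AMPKα1-/- 12 and 15 (vehicle replicates 1 and 2), 17 and 14 (LPS + Dex replicates 2 and 3).

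Adding Dex to LPS asks whether the glucocorticoid altered the levels seen with LPS, and it shares libraries with both comparisons above. In WT, 4 of the 78 genes rose and none fell, where 16.6% of all tested genes rose and 17.5% fell, and the median was 0.21 beside -0.03. The 4 were small subunit genes: Rpsa, Rps19, Rps9 and Rps16. Rpsa went from 246 and 245 FPKM to 358, 448 and 471, with no overlap (0.78 ± 0.20, limma adjusted p = 0.00287). Rps19 went from 422 and 469 to 599, 759 and 849 (0.71 ± 0.22, adjusted p = 0.0126), Rps9 from 543 and 610 to 772, 984 and 1061 (0.69 ± 0.19, adjusted p = 0.00621), again with no overlap, and Rps16 rose by 0.60 (adjusted p = 0.0241). Among the libraries labelled AMPKα1-/-, 3 genes rose and none fell, where 19.3% of all genes rose and 18.4% fell, and the median was 0.10 beside 0.01. Rpsa went from 374, 326 and 240 FPKM to 494, 426 and 472 (0.59 ± 0.18, adjusted p = 0.0102) and Rps9 from 742, 635 and 532 to 997, 923 and 924 (0.59 ± 0.17, adjusted p = 0.00819), both without overlap. Rps21 rose by 0.60 (limma adjusted p = 0.0377), with overlapping libraries. Rpsa and Rps9 thus rose in both genotypes, as 2 of the 4 and 2 of the 3. Both shares of the 78 (5.13% and 3.85%) were below the background on the deposited scale. After quantile normalization they were above it, with 28 and 24 genes higher (35.9% and 30.8%, where 20.9% and 21.8% of all genes were). Without WT LPS replicate 2 the count in WT was 1 and the median 0.12, without LPS + Dex replicate 1 they were 10 and 0.32, and without LPS + Dex replicate 3 the median was 0.061. Without LPS replicate 3 of the libraries labelled AMPKα1-/- no gene rose there and the median was -0.01, and without LPS replicate 1 the count was 5.

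With Dex alone the median of the 78 genes lay above 0 in the libraries labelled AMPKα1-/- and, on the deposited scale, below 0 in WT. In WT 72 of the 78 differences from vehicle were below 0, with a median of -0.20 beside 0.05 for all genes, and 3 genes fell and none rose, where 14.9% of all tested genes fell and 15.9% rose. After quantile normalization the WT median was -0.0031, with 41 of the 78 below 0 and none called, and without WT vehicle replicate 2 it was -0.059. The 3 genes were Rpl12 (457, 546 and 408 FPKM in vehicle against 361, 292 and 333, -0.51 ± 0.16, limma adjusted p = 0.0159), Rpl10a (-0.50, adjusted p = 0.0152) and Rps27l (-0.45, adjusted p = 0.0311). In the libraries labelled AMPKα1-/- 77 of the 78 differences were above 0, with a median of 0.38 beside -0.05, and 17 genes rose, or 21.8%, and none fell, where 11.9% of all tested genes rose and 16% fell. That excess of calls turned round after centring each library on 1 median, with 5 genes higher (6.41%, where 15.3% of all genes were). The median after centring was 0.47, with 0 of the 78 differences below 0. Without a filter on low genes 1 gene was called. Rps9 went from 1319, 1249 and 936 FPKM to 1607, 2319 and 1687, with no overlap (0.68 ± 0.17, adjusted p = 0.00409). Rpl13a went from 673, 598 and 501 to 960, 1001 and 842 (0.67 ± 0.22, adjusted p = 0.0262), also with no overlap, and Rpl32 rose by 0.59 (adjusted p = 0.0415). In 45 of the 78 genes the Dex libraries lay wholly above vehicle, against 20.5% of all genes. The difference between the genotypes was above 0 in 78 of 78 genes with a median of 0.59, or 0.28 after quantile normalization, but none passed after adjustment (limma, interaction, smallest adjusted p = 0.194). At an unadjusted p under 0.05 there were 57 of the 78, where 21.5% of all tested genes reached that level, and 0 were called by limma's voom and 0% of all genes by limma. The counts depended on single libraries. For those labelled AMPKα1-/- 1 gene rose without vehicle replicate 3, 1 without Dex replicate 2 and 8 without vehicle replicate 2. In WT none fell without vehicle replicate 2 or without Dex replicate 2, and 5 did without vehicle replicate 3.

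With DAMPs alone no gene of the 78 was called. In WT none was called (limma, 1 at an unadjusted p under 0.05, 0 by voom), where 1.22% of all tested genes rose and 0.793% fell, and the median was -0.07, or 0.065 without WT vehicle replicate 2. Likewise none was called in the libraries labelled AMPKα1-/- (limma, 3 at an unadjusted p under 0.05, 0 by voom), where 1.89% rose and 2.24% fell, and the median was 0.21 beside -0.07 for all genes. That median was 0.088 without vehicle replicate 3 and 0.295 without DAMPs replicate 2 of those libraries. Adding Dex to DAMPs raised 5 genes in WT and lowered none, where 11.7% of all genes rose and 12.6% fell, with a median of 0.27 beside 0.03. After centring each library on 1 median none of the 78 was called, where 11.8% of all genes were higher, although their median was 0.26. Without a filter on low genes 1 was called, as when only the groups compared or 1 genotype were fitted. After rescaling to the FPKM sum without Saa3, 10 were higher (12.8%, where 11.1% of all genes were). Rps9 went from 1239, 1412 and 1302 FPKM to 1928, 2305 and 1738, with no overlap (0.59 ± 0.17, limma adjusted p = 0.0129). Also called were Rpl13a (0.62, with overlapping libraries), Rpl35a (0.49) and Rpl14 (0.44). None of the 78 was called in the libraries labelled AMPKα1-/- (limma, 0 at an unadjusted p under 0.05, 0 by voom), where 13.1% of all genes rose and 12.2% fell, and the median was -0.04, or 0.077 without DAMPs replicate 1. The count in WT was 0, 1 or 2 without DAMPs + Dex replicate 2, DAMPs + Dex replicate 1 or DAMPs replicate 3, or DAMPs replicate 1, was 3 without DAMPs replicate 2 and was 20 without DAMPs + Dex replicate 3. Through the shared estimate of the spread it was 2 without WT vehicle replicate 1 or WT Dex replicate 3, 9 without WT LPS + Dex replicate 1, and 3 without vehicle replicate 2 or Dex replicate 1 of those labelled AMPKα1-/-.

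In vehicle the libraries labelled AMPKα1-/- did not differ detectably from WT in these genes. The median difference was -0.12, none was called (limma, 0 at an unadjusted p under 0.05, 0 by voom), and 0.229% of all tested genes were higher and 0.203% lower. That median turned to 0.020 without WT vehicle replicate 2 and to 0.012 without vehicle replicate 3 of those labelled AMPKα1-/-, and was -0.23 without WT vehicle replicate 3, so its direction rests on single libraries. The other interactions between genotype and treatment called none of the 78 either, with medians of 0.11 for LPS with Dex against vehicle, -0.11 for LPS with Dex against LPS, 0.26 for DAMPs and -0.32 for DAMPs with Dex against DAMPs (limma, with 0, 0, 1 and 3 of the 78 at an unadjusted p under 0.05 and 0 by voom). Among all tested genes, 0.044% rose and 0.0352% fell in the first of these and 0% in the other 3. With single libraries left out the first median ran from -0.029 (vehicle replicate 3 labelled AMPKα1-/-) to 0.24 (WT vehicle replicate 3), and the second from -0.23 (WT LPS + Dex replicate 1) to 0.019 (LPS replicate 1 labelled AMPKα1-/-), so neither has a settled direction. The third ran from 0.12 (WT vehicle replicate 2) to 0.40 (WT vehicle replicate 3) and the fourth from -0.46 (WT DAMPs + Dex replicate 3) to -0.18 (DAMPs replicate 1 labelled AMPKα1-/-).

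**Figure D4:**
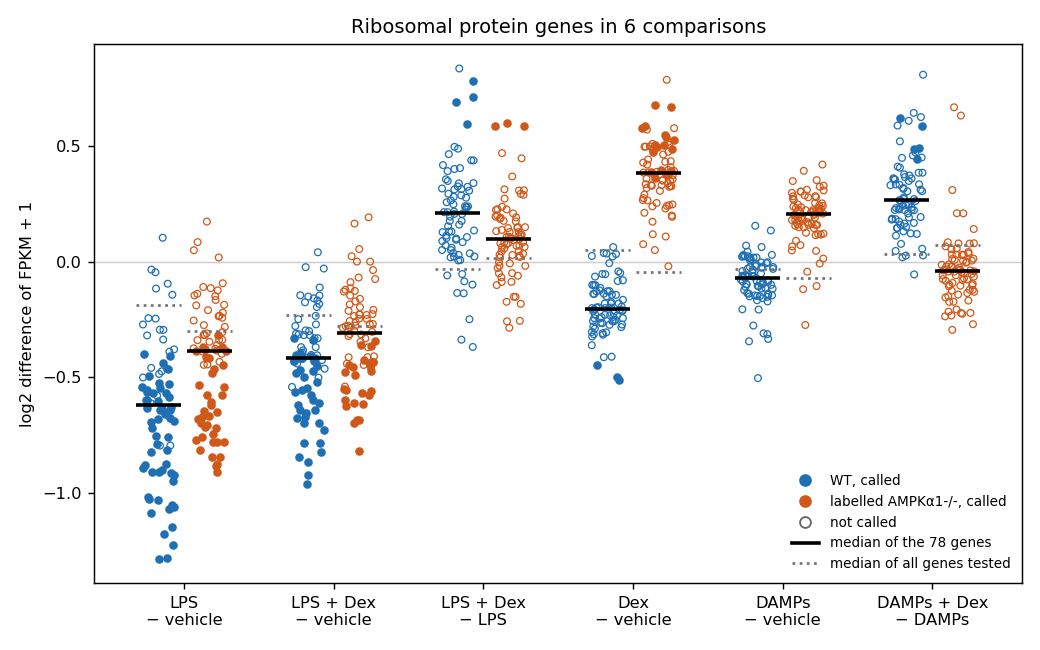
Difference in log2(FPKM + 1) for each of the 78 genes in 6 comparisons, WT in blue and the libraries labelled AMPKα1-/- in orange, filled where the gene was called (adjusted p under 0.05) and open where not, with a black bar at the median of the 78 and a dotted line at the median of all tested genes. Under LPS the WT bar (-0.62) lies far below its dotted line (-0.19), while in the libraries labelled AMPKα1-/- both are close (-0.38 and -0.30).

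FPKM values are shares of a whole, so a gene that takes a large share lowers all others. Saa3, an acute phase protein of the serum amyloid A family that macrophages make in inflammation, was such a gene. It held 2.86 and 3.04% of fragments in WT with LPS and 2.35, 3.15 and 1.52% in the libraries labelled AMPKα1-/-. With LPS and Dex it held 6.69, 8.14 and 11.96% in WT and 7.39, 7.48 and 10.34% in the others, and in vehicle at most 0.0128%. Its log2 difference between LPS and vehicle was 8.90 in WT and 8.61 in the others. That share shifts every other gene on the log2 scale, by a mean of -0.0432 in WT with LPS and -0.135 with LPS and Dex, and of -0.0341 and -0.127 in the libraries labelled AMPKα1-/-. Once the FPKM were divided by the share of fragments left by Saa3, the median of the 78 genes with LPS was -0.58 in WT, with 52 genes lower, and -0.35 in the others, with 32 lower. These were 66.7% and 41.0% of the 78, where 34.1% and 42.5% of all tested genes were lower on this scale. For LPS with Dex against LPS the median rose to 0.30 and 0.19, and 11 and 5 genes were higher in place of 4 and 3. These were 14.1% and 6.41% of the 78, below the 20.9% and 24.2% of all tested genes that were higher on this scale. Set against vehicle, LPS with Dex then left 20 and 12 genes lower in place of 38 and 26, at medians of -0.28 and -0.18. These were 25.6% and 15.4% of the 78, below the 29.6% and 33.5% of all tested genes, whereas the deposited values had put WT above its background (48.7% against 37%).

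Centring each library on 1 median took away differences between the libraries' medians over all genes. In WT with LPS the median of the 78 went from -0.62 to -0.47, and that of all genes from -0.19 to -0.04. Of the 78, 28 fell, or 35.9%, where 29.5% of all genes fell. For those labelled AMPKα1-/- the centred median of the 78 was -0.11 and 9 genes fell, where 30.9% of all genes did. For LPS with Dex against vehicle the centred medians were -0.19 and -0.021, with 6 and 0 genes lower (7.69% and 0%, where 25.1% and 25.96% of all genes were lower). For LPS with Dex against LPS they were 0.29 and 0.11, with 4 and 2 higher, where 20.0% and 20.8% of all genes were higher. For Dex alone they were -0.29 in WT and 0.47 in the others. There 2 genes were lower in WT (2.56%, where 17.7% of all genes were), and 5 were higher in the others, so that both shares lay below the background. As deposited, the median in the others was 0.38 with 17 genes higher, so that centring left fewer calls at a larger median. Why fewer genes were called after centring was not tested. Rescaling to the FPKM sum without Saa3 gave 61 and 57 genes lower with LPS (78.2% and 73.1%, where 34.97% and 45.5% of all genes were lower), and quantile normalization 62 and 61 (79.5% and 78.2%, where 30.1% and 32.4% were). In WT the share of the 78 that fell with LPS was thus well above the background under 4 of the 5 scalings and, after centring, near it. In the libraries labelled AMPKα1-/- it was well above under these last scalings, close to it as deposited and after division by the share left by Saa3, and below it after centring (11.5%). For LPS with Dex against LPS quantile normalization gave 28 and 24 genes higher (35.9% and 30.8%, where 20.9% and 21.8% of all genes were), above the background, in contrast to the other 4 scalings. Some genes were called in all 5 scalings. For LPS they were 28 in WT (35.9%, where 27.2% of all tested genes were called lower in all 5), among them Rpl10a, Rps9 and Rpsa, and 9 in the libraries labelled AMPKα1-/- (11.5%, where 28% were), among them Rpl10a, Rpl12, Rpl22, Rpl5, Rps14, Rps4x, Rps9 and Rpsa. For LPS with Dex against LPS they were Rps16, Rps19, Rps9 and Rpsa in WT and Rps9 and Rpsa in the others, where 16% and 17.7% of all tested genes were called higher in all 5. For LPS with Dex against vehicle they were 6 in WT, among them Rpl10a, Rpl7, Rps14 and Rps27, and none in the libraries labelled AMPKα1-/-, where 23.6% and 24.1% were called lower. For Dex alone they were 5 in the libraries labelled AMPKα1-/-, among them Rpl13a, Rpl27a, Rps15a and Rps9, where 9.26% were called higher, and none was lower in WT, where 11.5% were. Of these comparisons, only LPS in WT had a share of the 78 above that of all genes.

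**Figure D5:**
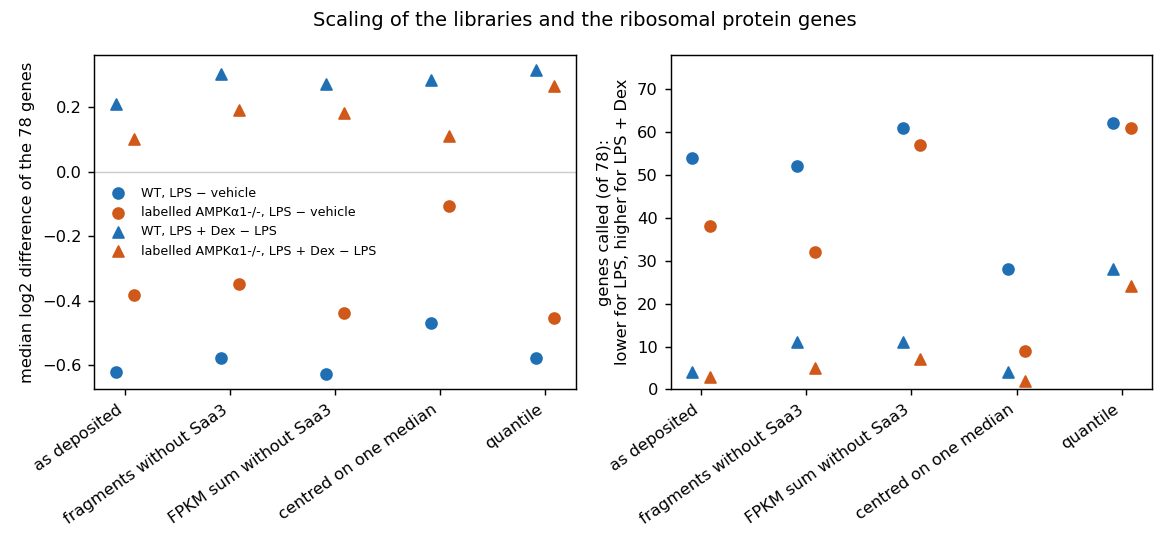
Median log2 difference of the 78 genes (left) and number of them called (right) under 5 scalings of the libraries, for LPS against vehicle (circles, genes called lower) and LPS with Dex against LPS (triangles, genes called higher), WT in blue and the libraries labelled AMPKα1-/- in orange. The LPS medians stay below 0 under all 5, but centring brings that of the libraries labelled AMPKα1-/- from -0.38 to -0.11.

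Related genes of the translation machinery were counted in the same fit, and their counts stand beside the shares of all tested genes given above. With LPS these were 35.8% lower and 19.9% higher in WT, and 44.1% and 20.2% in the libraries labelled AMPKα1-/-. With Dex added to LPS they were 17.5% lower and 16.6% higher, and 18.4% and 19.3%. Of 8 genes for ribosomal proteins outside the symbol rule 7 were tested, and 3 of them fell and none rose with LPS in WT, Rps27rt (-1.11), Fau (-0.78), which encodes the small subunit protein eS30, and Rack1 (-0.62), a scaffold on the small subunit. Rpl36al rose by 0.76 in the libraries labelled AMPKα1-/-, where 2 of the 7 rose and 1 fell. Of 22 elongation factors and other genes with TOP messages, 12 fell and 1 rose in WT and 13 fell and 1 rose in the others. Examples were Nap1l1, a histone chaperone (-1.59 in WT and -2.06 in the others), Eif4b, which aids the helicase of initiation (-1.45 and -1.59), Eif3f (-1.24 and -1.36), Eef2, the translocase of elongation (-0.97 and -0.84), and Eef1a1, which delivers tRNA (-0.74 and -0.74). The list's median was -0.39 in WT and -0.46 in the others. When Dex was added to LPS in WT, Tpt1 rose by 0.50, Hnrnpa1 and Eif3e fell by 0.48 and 0.47, and the list's median was -0.013. In the others 3 rose and 1 fell.

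Among factors that start translation and those that build ribosomes, more genes rose than fell with LPS. Of 32 initiation factors, 14 rose and 2 fell with LPS in WT, and 15 rose and 6 fell in the libraries labelled AMPKα1-/-. Eif4e, which binds the cap, rose by 1.19 and 1.26, Eif4g2 by 1.38 and 1.20, and Eif2s1, the subunit phosphorylated in stress, by 0.98 and 0.95. When Dex was added to LPS, 11 fell and none rose in WT and 14 fell and 1 rose in the others, with Eif5, which activates the start-site GTPase, at -0.93 in WT. Of 50 genes of ribosome biogenesis, 21 rose and 4 fell with LPS in WT and 29 rose and 5 fell in the others, among them Bysl (1.33 and 1.28) and Rpf2 (1.32 and 1.45), which act in the assembly of the small and large subunit, and Heatr1 (1.27 and 0.80), needed for rRNA synthesis. With Dex added, 19 fell and 1 rose in WT and 22 fell and 1 rose in the others, Wdr43 by -0.76 in WT. Their medians with LPS were 0.27 and 0.39, on the other side of 0 from those of the 78 genes. Of 77 mitochondrial ribosomal protein genes, 24 rose and 10 fell in WT and 31 rose and 7 fell in the others, with Mrpl52 (2.46 and 2.44) and Mrps10 (1.33 and 1.56) the highest named.

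Of 22 genes that control mTOR and MYC, 12 fell and 4 rose with LPS in WT and 11 fell and 3 rose in the others, so that 54.5% fell in WT, above the 35.8% of all tested genes, and 50% in the others, near the 44.1%. Sesn1, a sestrin that restrains mTORC1, fell by 3.38 and 3.87, Deptor, an inhibitor bound to mTOR, by 2.40 and 2.24, and Mnt, an antagonist of MYC, by 1.57 and 1.81. Myc, which drives transcription of ribosomal protein genes in many cells, fell by 1.25 and 1.89. Mtor itself was at 0.32 ± 0.23 and 0.09 ± 0.21 (SE, limma adjusted p = 0.244 and 0.721). When Dex was added to LPS in WT, Ddit4, a glucocorticoid target that restrains mTORC1, rose by 3.24, Deptor by 1.84 and Sesn1 by 1.59. In all, 4 rose and 3 fell in each genotype, or 18.2% and 13.6%, where 16.6% and 17.5% of all tested genes did in WT and 19.3% and 18.4% in the others.

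Markers of dividing cells moved with several of these comparisons. The summed FPKM of 12 such genes was 611, 597 and 691 in WT vehicle, 215 and 218 with LPS and 214, 201 and 210 with Dex. For the libraries labelled AMPKα1-/- it was 568, 829 and 655 in vehicle, 187, 201 and 209 with LPS and 176, 205 and 178 with Dex. With LPS, 9 of the 12 fell and 3 rose in WT and 9 fell and 1 rose in the others, and Mki67 was among those that rose (1.79 and 1.09) while Top2a fell by 1.12 and 1.95. With Dex alone 8 of 12 fell in WT and 12 of 12 in the libraries labelled AMPKα1-/-, where the ribosomal protein genes stood higher. Against vehicle, LPS with Dex had 7 lower and 1 higher in WT and 11 lower in the others. With DAMPs 4 fell in WT and 12 of 12 in the libraries labelled AMPKα1-/-, at a median of -1.32. The part of cell division in the results was not tested.

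The cells carried macrophage messages throughout. Of 10 macrophage markers all were tested, and Lyz2, the most abundant, had group means of 19655 FPKM in WT vehicle and 12857 with LPS, Adgre1 (F4/80) of 1006 and 1903 and Csf1r of 577 and 228. With LPS 3 of the 10 rose and 6 fell in each genotype. Of 10 neutrophil markers 5 were tested, and their summed level was 1.85 to 32.4 FPKM in WT vehicle, 161 and 126 with LPS and 511 to 1200 with LPS and Dex. In vehicle labelled AMPKα1-/- the sum was 8.64 to 41.3 FPKM. S100a8, which macrophages also make, led the sum with LPS and Dex at a mean of 747 FPKM in WT. Ly6g, Elane and Mpo were near 0, with group means of at most 0.205 FPKM (Elane), and so were not among the 5 tested. Of those 5, 2 rose and 1 fell between LPS with Dex and vehicle in each genotype. The tested markers other than S100a8 are not named here, and whether the cultures held some neutrophil-lineage cells was not tested. Of 6 B cell markers only Ighm was tested, at a mean of 70.7 FPKM in WT vehicle, 12.4 with Dex and 1.70 with LPS, and of 65.5, 21.6 and 0.888 in the libraries labelled AMPKα1-/-. With Dex alone it fell by 2.44 and 1.57 on the log2 scale. Pax5 was at or near 0. Of 6 dendritic cell markers only Ccr7 was tested, at a mean of 73.7 FPKM in WT with LPS and 0.860 with LPS and Dex. No T cell or erythroid marker of the 6 each passed 1 FPKM. Of 6 stromal markers 3 were tested, with sums of 1.16 to 24.7 FPKM over all libraries. Between DAMPs and DAMPs with Dex in WT, where 5 of the 78 genes rose, the sum went from 1.34 to 8.22 FPKM to 9.42 to 18.5 with no overlap, Col1a1 and Col1a2 rose by 1.25 each, and Ighm fell by 1.72. Sums of neutrophil and dendritic cell markers also moved with LPS, and Ighm fell with LPS and with Dex alone, the comparison in which genes of the 78 rose in the libraries labelled AMPKα1-/-. Their part in the ribosomal results was not tested.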

How the data were processed

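RNA from cultured macrophages was made into libraries by a sequencing company. Per the labels, the authors used Bowtie2 2.2.3, TopHat2 2.0.12 and HTSeq 0.6.1 on GRCm38 (mm10), and the values they deposited are FPKM per gene, 1 column a library. The annotation version is not given in the sources used here. The step of 1 fragment was read from each gene's values, which gave whole fragments for 100% of tested genes within 0.02 fragments. The steps use the gene lengths implied by the values. Symbols came from GENCODE M21 for 46574 of 47069 identifiers.

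Genes with a mean of at least 1 FPKM were tested with limma 3.58.1 (R 4.3.3, trended empirical Bayes) on log2(FPKM + 1) in 1 fit of all 12 groups without a block, with Benjamini-Hochberg adjustment over 11354 genes and a threshold of 0.05, in 19 comparisons. A log2 difference on this scale understates the change of low genes. Groups came from the labels. The fit was also run on simulated data. Alternatives were other pseudocounts and filters, 3 other scalings (centring each library on 1 median, the FPKM sum without Saa3 and quantile normalization), other sample sets, a replicate block, each of 35 libraries left out and, added after seeing the data, division by the share left by Saa3 and limma's voom on the fragments. The members, lists and rules were chosen with earlier results of these data known. Genes were named by rule: the 5 highest and lowest in each comparison and by level, near copies, genes of known role, Saa3, Prkaa1 and, from each list, those with the largest changes. Myc, Mtor, Eef1a1, Eef2, Mki67, Top2a and the markers were named after their values were seen. Some genes that the rule names are not reported here.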

Additional observations from a re-analysis of the deposited data

How the results depend on the processing

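The replicate numbers were shared across groups, and no label says that they pair cultures. Same-numbered libraries deviated together (correlation over 0.1) in 25 of 40 WT pairs and 29 of 45 pairs of those labelled AMPKα1-/-, not in every pair as pairing was set to require, so the numbers were not taken as pairs. As a hint from the data that numbers may share a source, each library correlated best with its own number in 14 of 17 and 14 of 18, with a median r of 0.277 and 0.217 for the same number and -0.0971 and -0.0866 for different numbers. With a replicate block 6 genes fell with Dex in WT in place of 3 and 1 was called for DAMPs + Dex against DAMPs in the libraries labelled AMPKα1-/- in place of 0, no other count moved by over 1.5 times, and the vehicle comparison of genotypes could not be estimated. In WT, centring on 1 median gave 28 genes for LPS, 6 for LPS + Dex against vehicle and 0 for DAMPs + Dex. For those labelled AMPKα1-/- it gave 9 genes (median -0.11) for LPS, 0 (median -0.021) for LPS + Dex against vehicle and 5 for Dex. With the block and centring these were 29, 6 and 0, and 9 (median -0.11), 1 (median -0.021) and 11.

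Testing without a filter on low genes left 1 gene called for DAMPs + Dex in WT, 1 for Dex and 16 for LPS + Dex against vehicle in the libraries labelled AMPKα1-/-. Scaling to the FPKM sum without Saa3 gave 11 and 7 genes for LPS + Dex against LPS in WT and the others, and 10 for DAMPs + Dex in WT. Quantile normalization gave 0 for Dex, 28 for LPS + Dex against LPS and 8 for DAMPs + Dex in WT, 61 for LPS and 24 for LPS + Dex against LPS in the others, and a median genotype difference for Dex of 0.28 in place of 0.59. Division by the share left by Saa3 gave 20 and 12 for LPS + Dex against vehicle and 11 and 5 against LPS. Fitting only the groups compared gave, in WT, 22 for LPS + Dex against vehicle, 1 against LPS and 1 for DAMPs + Dex, and 11 for Dex in the others, and fitting 1 genotype gave 1 for DAMPs + Dex in WT. The cause of these shifts was not tested.

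With each library left out, the counts in WT ran from 29 to 61 for LPS, 19 to 50 for LPS + Dex against vehicle, 1 to 10 against LPS, 0 to 5 for Dex and 0 to 20 for DAMPs + Dex. For those labelled AMPKα1-/- they ran from 21 to 54 for LPS, 12 to 33 for LPS + Dex against vehicle, 0 to 5 against LPS, with its median from -0.014 to 0.23, and 1 to 23 for Dex. Leaving out 1 of the 2 WT LPS libraries left a lone sample assumed to vary like the other groups. Of 34 calls on named genes none changed direction under these or the other 12 settings, and 24 of 34 passed after centring. The medians for LPS ran from -0.74 to -0.47 in WT and from -0.54 to -0.29 in the others. Medians with no gene called turned sign without 1 library for DAMPs in WT (-0.19 to 0.065), DAMPs + Dex against DAMPs in the others (-0.14 to 0.077), the genotypes in vehicle (-0.23 to 0.020) and their difference for LPS + Dex against vehicle (-0.029 to 0.24) and against LPS (-0.23 to 0.019). The limits are 3 cultures a group, FPKM as shares of a whole, genotype labels that Prkaa1 does not check, libraries that Rps2 and Rps18 divide, and processed copies, whose sharing of reads with their parents was not tested.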

Other observations

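Rows of the major histocompatibility region on chromosome 17, chosen after their values were seen, also divided the libraries. H2-D1, a class I molecule, was at 3795, 1319 and 3352 FPKM in WT vehicle and at 1086, 934 and 4788 in vehicle labelled AMPKα1-/-. H2-Ea-ps, annotated as a polymorphic pseudogene of class II, was at 151, 160 and 112 FPKM in WT vehicle and at 414, 503 and 0 in vehicle labelled AMPKα1-/-, and in DAMPs at 0, 149 and 214 in WT and 742, 880 and 434 in the others. H2-Q1, another class I row, was at 0.0783 FPKM in WT vehicle replicate 2 and at 64.2 and 55.4 in replicates 1 and 3, which is not the division of the other rows, since the 5 other WT libraries numbered 2 were at 67.3 to 146. In the libraries labelled AMPKα1-/- it was at 0.216 in vehicle replicate 2 and at 105 in Dex replicate 2. The strain label is C57BL/6 for every library, and why these rows differ between cultures was not tested.

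Across the 78 genes, the difference between Dex and vehicle had a Pearson's r of 0.56 and a Spearman's rho of 0.53 between WT and the libraries labelled AMPKα1-/-, although the medians were -0.20 and 0.38. The same values for DAMPs were 0.00199 and 0.238. The genotypes share no library in either comparison, and the genes are not independent replicates, so these are descriptions.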
